A study of Homo sapiens with 16 samples.

Results

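S100 genes encode small calcium-binding proteins of the EF-hand type that act as dimers, and most of the human family lies in a block on chromosome 1q21, interrupted by the epidermal differentiation complex, whose genes build the cornified layer of stratified epithelium. S100A2 is a keratinocyte and basal epithelial protein that binds members of the p53 family, S100A4 binds non-muscle myosin and is known for its role in cell motility and metastasis, and S100A10 is the partner of annexin A2 at the plasma membrane, where the complex takes part in plasminogen activation. AIB1, the product of NCOA3, is a coactivator that is brought to DNA by nuclear receptors and other transcription factors rather than by a DNA-binding domain of its own. The genomic clusters of AIB1 within 200 kb of the transcription start site (TSS) of S100A2, S100A4 or S100A10 are described here. They number 9 of the 897 different clusters in the 4 deposited lists, and 2 of the 9 count for both S100A2 and S100A4. The genes were chosen by the cluster positions and scores of these same lists, so the presence, distance and rank of those clusters are a description and no test was made on them.

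The data were chromatin immunoprecipitation sequencing (ChIP-seq) with an AIB1 antibody in MCFDCIS-D4 and MCFDCIS cells and in MCF10A-D4 and MCF10A cells. MCF10A is a non-tumorigenic human mammary epithelial line, MCFDCIS is a related line used as a model of ductal carcinoma in situ, and D4 refers, per the series title, to the AIB1D4 isoform of the coactivator. For each of the 4 groups the labels list 3 ChIP samples and 1 input, from passages 10 to 15, crosslinked with 1.2% formaldehyde, and all were grown with the same additions of horse serum, EGF, hydrocortisone, cholera toxin and insulin. The labels do not say how the D4 cells were made, whether they are single clones, or whether the 3 samples of a group were separate cultures, and their cell type entry calls the MCF10A samples ductal carcinoma in situ cells as well.

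Each group is represented by 1 list, with 99 clusters in the MCFDCIS-named D4 list, 651 in its parental counterpart, 138 in the MCF10A-named D4 list and 490 in the MCF10A-named parental list. A cluster has a position in hg19 and a score whose definition the files do not give, so the score was used only to rank clusters within a list. There is no value per sample, so no replicate error exists for any value below, and depth is unknown. The sample descriptions of each cell line cite the lists named after the other line. The lists are therefore called by the name they carry and were given to no cell line. Of the markers of the tissue, 4 of 6 basal markers (KRT5, KRT14, KRT17 and ITGB4) had a cluster within 200 kb in the parental list named after MCFDCIS and 3 of 6 in that named after MCF10A, against 1 of 4 luminal markers (ESR1) in each. The D4 lists had 0 of 6 basal markers under the MCFDCIS name and 1 of 6 (ITGB4) under the MCF10A name, and 0 of 4 luminal markers. The share of all protein-coding genes was 2.52% in the D4 and 10.7% in the parental list under the MCFDCIS name, and 1.92% in the D4 and 7.45% in the parental list under the MCF10A name, and KRT14 and KRT17 are neighbours that share 3 clusters. A cluster near a gene is no measure of its expression.

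The sequence around 4 of the 9 clusters is shown first, because these are the clusters in a D4 list or in both parental lists, on which the results below turn. Each is the central 200 bases on the plus strand of GRCh37, with words for AP-1, TEAD or RUNX in capitals. The AP-1 word is TGANTCA, in which the middle base may be any base.
The cluster upstream of S100A2, window chr1:153540131-153540330, with the AP-1 word in capitals: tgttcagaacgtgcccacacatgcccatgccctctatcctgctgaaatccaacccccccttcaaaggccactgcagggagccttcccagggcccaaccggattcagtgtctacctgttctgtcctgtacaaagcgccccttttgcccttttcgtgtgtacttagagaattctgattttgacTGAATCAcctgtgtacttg
The wide cluster in intron 1 of S100A10, window chr1:151962881-151963080, which holds none of these words: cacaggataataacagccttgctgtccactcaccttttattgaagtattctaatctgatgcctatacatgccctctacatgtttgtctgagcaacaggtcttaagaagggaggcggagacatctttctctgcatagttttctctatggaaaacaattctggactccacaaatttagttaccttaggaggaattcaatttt
The cluster upstream of S100A11 in both parental lists, window chr1:152020931-152021130, with a RUNX and then a TEAD word in capitals: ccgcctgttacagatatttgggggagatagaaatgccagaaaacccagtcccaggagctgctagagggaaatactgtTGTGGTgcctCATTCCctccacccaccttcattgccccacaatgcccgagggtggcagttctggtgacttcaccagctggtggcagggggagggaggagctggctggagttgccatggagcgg
The cluster near RPTN in both parental lists, window chr1:152140406-152140605, with 3 RUNX words in capitals: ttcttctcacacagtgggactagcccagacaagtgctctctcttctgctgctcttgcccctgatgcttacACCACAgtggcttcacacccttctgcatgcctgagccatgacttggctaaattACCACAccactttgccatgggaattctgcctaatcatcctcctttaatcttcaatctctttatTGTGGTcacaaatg

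The S100A2 cluster was listed for D4 and parental cells under the MCFDCIS name and in neither list under the MCF10A name. It spans chr1:153540051-153540410, 360 bp, and lies 1.731 kb upstream of the canonical S100A2 TSS at position 153538320 on the minus strand (ENSG00000196754). In the authors' deposited table its score was 8.43 in the MCFDCIS-named D4 list, rank 74 of 99, and 86.6 in the parental list of that name, rank 29 of 651. It thus stood below the median score of the D4 list, with 23.2% of that list below it, and near the top of the parental list, with 95.5% below it. Ranks in lists of such different length show no change of binding. The nearest cluster of the MCF10A-named lists was 1575 kb from the S100A2 TSS in the D4 list and 1398 kb in the parental list, both on the S100A10 side.

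The S100A2 cluster covers the first exon of another S100A2 transcript. GENCODE gives S100A2 6 different transcript starts, and the one at position 153540366 (ENST00000368710) falls inside the cluster, which overlaps all 47 bp of its exon 1. Measured from the canonical start the cluster was upstream and intergenic, and measured from this transcript its distance was 0 kb.

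S100A4 had no cluster that S100A2 did not also have. The S100A2 cluster lay 21.8 kb upstream of the canonical S100A4 TSS at position 153518282 (minus strand, ENSG00000196154), and 17.4 kb from the nearest of the 5 transcript starts of S100A4. S100A3, whose TSS is closer to that cluster at 18.3 kb, and S100A2 itself stand between it and S100A4, so the lists do not tell to which of these genes the cluster belongs. The second cluster of this side, chr1:153581401-153581460, was in the MCFDCIS-named parental list alone. It lay 43.1 kb from the S100A2 TSS and 63.1 kb from the S100A4 TSS, and the nearest canonical TSS was that of S100A16 at 4.15 kb. It is in intron 1 of the canonical S100A16 transcript, and all of its 60 bp are inside exon 1 of another S100A16 transcript (ENST00000368705). In the authors' deposited table its score of 16.9 ranked 394 of 651, below the median of that list.

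S100A10 had 7 clusters, all at other places than those of S100A2, and its clusters were in 3 of the 4 lists. The MCFDCIS-named D4 list held 0 and its parental counterpart 5, while the MCF10A-named D4 list held 1 and the MCF10A-named parental list 4. The canonical S100A10 TSS is at position 151966335 on the minus strand (ENSG00000197747). The nearest cluster of the MCFDCIS-named D4 list was 1574 kb away from it and was the S100A2 cluster.

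Intron 1 of S100A10 held different clusters under the 2 line names. The 460 bp cluster at chr1:151962751-151963210, 3.125 kb downstream of the TSS, was in the MCF10A-named D4 and parental lists. In the authors' deposited table it scored 7.23 in the D4 list, rank 124 of 138, and 14.1 in the parental list, rank 195 of 490, which is below the median of the first and above that of the second. The MCFDCIS-named parental list had instead the 10 bp cluster at chr1:151964851-151964860, 1.475 kb downstream of the canonical TSS and 0.194 kb from another S100A10 transcript start at position 151965054. That cluster was near the bottom of its list in the authors' deposited table, with a score of 7.18 and rank 635 of 651. The gap between these clusters was 1.64 kb. A limit of 1 kb was tried only for clusters shared between D4 and parental lists of a name, and sharing between names was counted by overlap alone.

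Upstream of S100A10 lay 4 further clusters, each closer to the TSS of S100A11, which encodes a calcium-binding partner of annexin A1. The cluster at chr1:151996801-151996810, 30.5 kb upstream of S100A10 and 12.7 kb from S100A11, was in the MCFDCIS-named parental list alone. It lies in an intron of the long non-coding RNA gene ENSG00000229021 and ranked 174 of 651 in the authors' deposited table, the best rank of an S100A10 cluster in that list. The cluster at chr1:152021001-152021060 was in both parental lists, at 54.7 kb from S100A10 and 11.5 kb from the canonical S100A11 TSS at position 152009480. It was only 0.618 kb from the second annotated S100A11 transcript start at position 152020383. In the authors' deposited table it ranked 249 of 651 in the MCFDCIS-named parental list, above the median, and 350 of 490 in the MCF10A-named parental list, below the median. A further 10 bp cluster at chr1:152022651-152022660, 1.59 kb from it, was in the MCF10A-named parental list alone at rank 257 of 490 in the authors' deposited table.

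The outermost S100A10 clusters were nearer to genes of other families. The cluster at chr1:152140451-152140560 was in both parental lists, 174.1 kb upstream of S100A10, and was the farthest inside the window. Its nearest canonical TSS was that of RPTN, which encodes repetin, a cornified envelope protein, at 8.75 kb. In the authors' deposited table it ranked 250 of 651 for parental cells under the MCFDCIS name and 106 of 490 under the MCF10A name, above the median in both. On the other side the cluster at chr1:151840601-151840610 lay 125.7 kb downstream of S100A10 and 14.4 kb from THEM5, a thioesterase gene, and ranked 465 of 651 in the authors' deposited table for the MCFDCIS-named parental list. The next clusters outside the window were 798.3 kb from S100A10, 852.5 kb from S100A2 and 872.5 kb from S100A4, so the 200 kb limit separated no close neighbours.

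**Figure D1:**
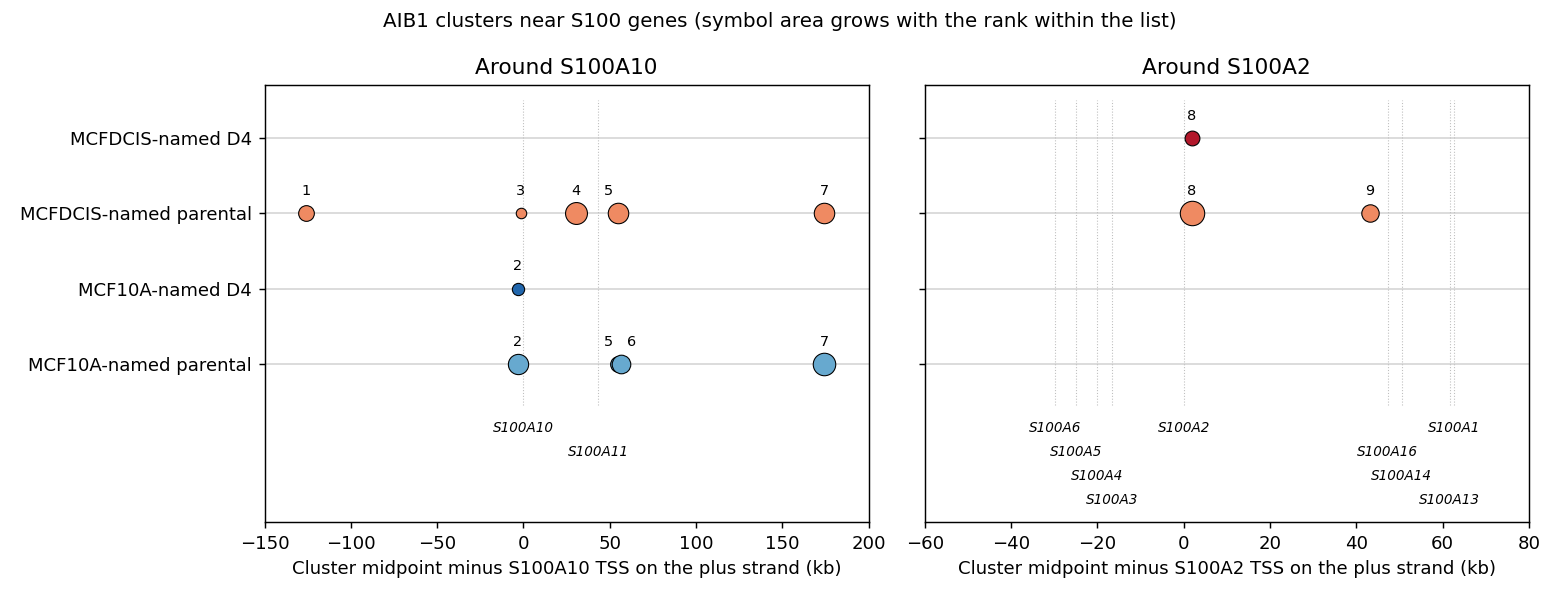
Position of each of the 9 clusters, numbered along the chromosome, as cluster midpoint minus the canonical TSS in kb on the plus strand, with S100A10 as the origin on the left and S100A2 on the right. Rows are the 4 lists, symbol area grows with the percentage of the same list that scores lower, and dotted lines mark S100 gene starts. Clusters 8 and 9, whose nearest bases are 1.731 kb and 43.1 kb from the S100A2 TSS, appear only in the MCFDCIS-named rows.

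Of the 9 clusters, the MCFDCIS-named D4 list held 1 and its parental counterpart 7, and the MCF10A-named D4 list held 1 and the MCF10A-named parental list 4. Neither D4 cluster was in a list of the other name. How usual that is among all D4 clusters was not counted, so nothing is read from it. Each D4 cluster was also in the parental list of its own name, as 65.7% of all MCFDCIS-named and 48.6% of all MCF10A-named D4 clusters were. So 1 of 7 MCFDCIS-named parental clusters was shared with D4, 14.3% (exact 95% interval 0.361 to 57.9, over clusters and not over samples), beside 9.98% of all 651. Under the MCF10A name 1 of 4 was shared, 25% (0.631 to 80.6), beside 13.7% of all 490. With so few clusters these shares say nothing of a difference from the whole lists. The D4 clusters at S100A2 and S100A10 were the widest of the 9, at 360 and 460 bp, where the other 7 were 10 to 110 bp. Over the whole lists, parental clusters also in D4 had a median width of 110 bp and those not in D4 60 bp under the MCFDCIS name, and 60 bp and 110 bp under the MCF10A name. The upper quartiles were 460 bp and 260 bp under the MCFDCIS name, and 1535 bp and 260 bp under the MCF10A name, so the medians differed in direction between the names and the upper quartiles did not. The 2 parental lists shared 2 of these clusters, 28.6% of 7 and 50% of 4, beside 47.2% of the 651 MCFDCIS-named and 62.7% of the 490 MCF10A-named parental clusters.

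**Figure D2:**
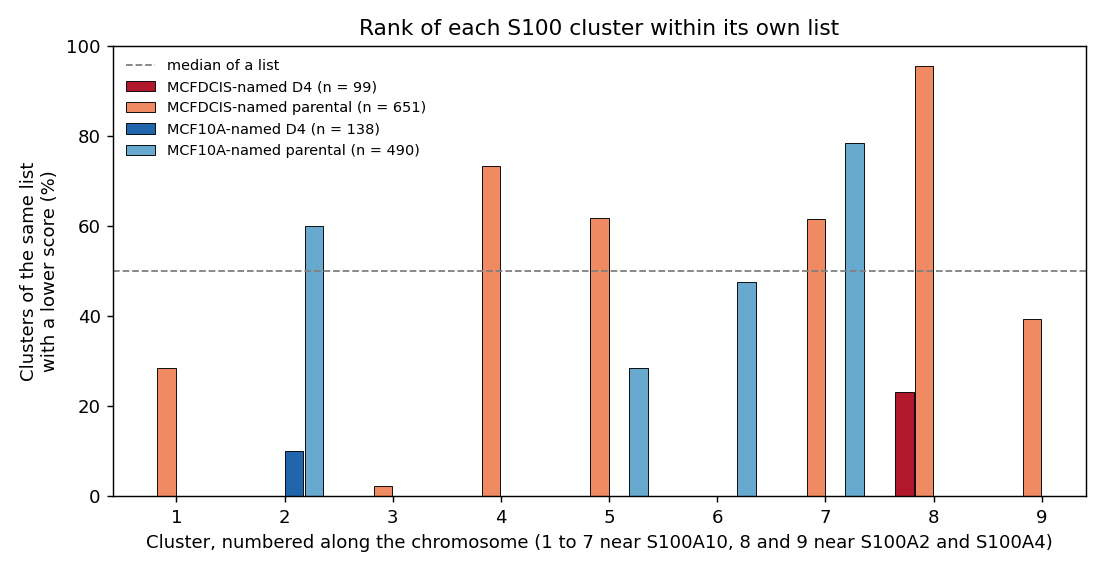
Bars give, for each of the 9 clusters, the percentage of clusters in the same list with a lower score, for the 4 lists; a missing bar means that the cluster is not in that list, and the dashed line marks the middle of a list. Both D4 bars (10.1% at cluster 2 and 23.2% at cluster 8) lie below the line, and the parental bar of cluster 8 is the highest at 95.5%.

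Scores of these clusters ran from the top to the bottom of their lists. In the MCFDCIS-named parental list 4 of the 7 were above the list's median score, with ranks from 29 to 635 of 651. In the MCF10A-named parental list 2 of the 4 were above it, with ranks from 106 to 350 of 490. In the D4 lists the 1 cluster of each was below the median.

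A cluster within 200 kb was uncommon among all genes. Of 18604 protein-coding genes, 2.52% had one in the MCFDCIS-named D4 list, 10.7% in its parental counterpart, 1.92% in the MCF10A-named D4 list and 7.45% in the MCF10A-named parental list. S100A2 and S100A4, with 2 different clusters over the 4 lists, were at a number reached by 4.04% of genes, and S100A10, with 7, at a number reached by 0.301%, or 56 genes. Within the parental lists, the 2 MCFDCIS-named clusters of S100A2 and S100A4 were a number reached by 3.33% of genes, the 5 of S100A10 by 0.285%, and the 4 MCF10A-named clusters of S100A10 by 0.387%. As these numbers chose the genes, nothing is read from them. The gene surroundings were also dense: 17 other protein-coding TSSs lay within 200 kb of S100A2, 19 of S100A4 and 9 of S100A10, against a median of 5 over all genes, and the part of gene density in these values was not tested.

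Along the whole S100 block, the MCFDCIS-named D4 list had a cluster on the S100A2 side only. The MCF10A-named lists had clusters on the S100A10 side only, and the MCFDCIS-named parental list on both. Of the 16 protein-coding S100 genes on 1q21, 13 were within 200 kb of a cluster in the MCFDCIS-named D4 list and 15 in its parental counterpart, against 2 each in the MCF10A-named D4 and parental lists. These are 81.25%, 93.75%, 12.5% and 12.5% of the genes, beside 2.52%, 10.7%, 1.92% and 7.45% of all genes. S100A10 and S100A11 share their clusters in each list that has them. All 13 genes of the MCFDCIS-named D4 list were counted through the single cluster at S100A2, which is near the same 13 in the parental counterpart. The counts are of genes that share a neighbour and not of separate events, so nothing is read from the difference. The 13 genes run from S100A12 and S100A8, the inflammatory calprotectin gene, at 192.0 and 176.5 kb, through S100A7A and S100A7 at 151.1 and 106.9 kb, to S100A6, S100A5 and S100A3 at 31.6, 26.6 and 18.3 kb, and on the far side S100A16, S100A14, S100A13 and S100A1 at 45.2 to 60.5 kb. In the MCFDCIS-named parental list the nearest cluster of S100A16, S100A14, S100A13 and S100A1 was the other one, at 4.15, 7.34, 18.5 and 19.4 kb. The 2 genes marked in the MCF10A-named lists were S100A10 and S100A11. S100A9, the partner of S100A8 in calprotectin, had no cluster within 200 kb in any list, and its nearest was the S100A2 cluster at 209.7 kb.

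**Figure D3:**
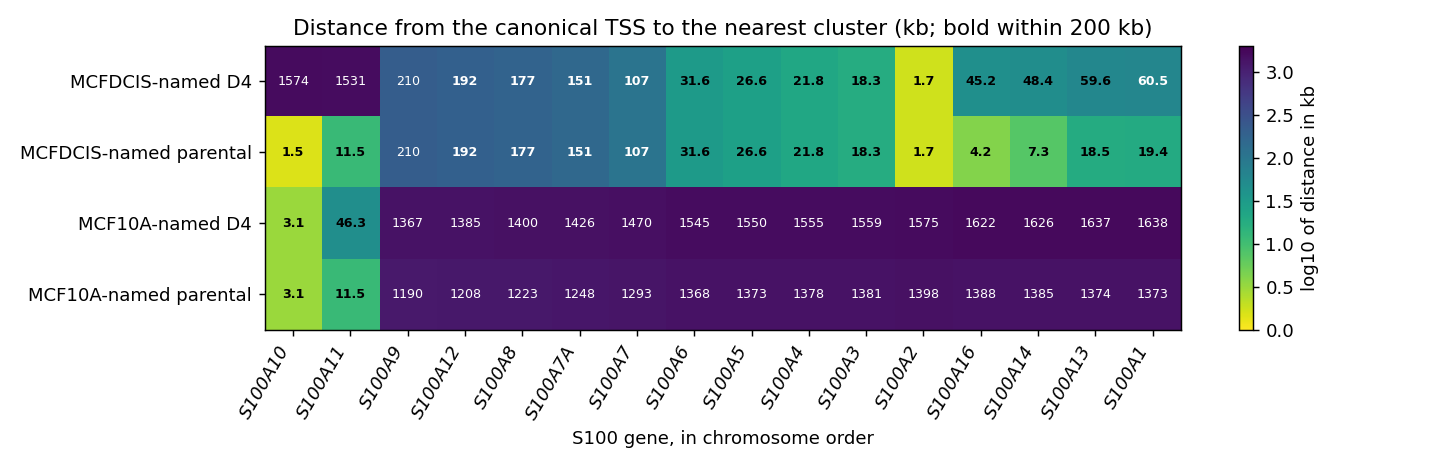
Distance in kb from the canonical TSS of each of the 16 S100 genes, in chromosome order, to the nearest cluster of each list, coloured on a log10 scale, with bold type for distances within 200 kb. The MCF10A-named rows are near a cluster at S100A10 and S100A11 only, and the MCFDCIS-named D4 row has its smallest distance at S100A2 (1.731 kb).

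Between the S100 stretches lies the epidermal differentiation complex, and its genes with a cluster were at its S100A10 end. Of 44 genes of this complex, 0 were within 200 kb of a cluster in the MCFDCIS-named D4 list and 6 in its parental counterpart, and 3 in the MCF10A-named D4 list and 6 in the MCF10A-named parental list. These are 0%, 13.6%, 6.82% and 13.6% of the genes, beside 2.52%, 10.7%, 1.92% and 7.45% of all genes, and nothing is read from the difference since the genes share clusters. The 6 were TCHHL1, TCHH, RPTN, HRNR, FLG and FLG2, all of the S100-fused type, and their clusters were those already counted for S100A10. CRNN, another gene of that type, was not among them, and no loricrin, involucrin, SPRR or LCE gene was.

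S100 genes outside 1q21 and partners of S100 proteins were looked up as well. Of the S100 genes S100P, S100G and S100Z and the S100P-binding protein gene S100PBP, 0 of 4 had a cluster within 200 kb in any list. Of all genes 11.6% had one, so nothing is read from 4 genes without one. Of 21 partner genes, 1 had one in the MCFDCIS-named D4 list (PLAUR) and 4 in its parental counterpart (ANXA2, PLAUR, HTR1B and EGFR), while the MCF10A-named D4 list had 1 (PLAUR) and the MCF10A-named parental list 2 (PLAUR and EGFR). These are 4.76%, 19.0%, 4.76% and 9.52% of the genes, beside the 2.52%, 10.7%, 1.92% and 7.45% of all genes. At most 4 of the 21 had a cluster in a list, so nothing is read from the difference. ANXA2, the annexin that S100A10 binds, had a 10 bp cluster at chr15:60662401-60662410, 27.8 kb from its TSS, in the MCFDCIS-named parental list alone (rank 381 of 651 in the authors' deposited table). PLAUR, the urokinase receptor of the plasminogen system, had a cluster at 98.1 kb in both MCFDCIS-named lists and another at 83.1 kb in both MCF10A-named lists. A further PLAUR cluster, at 137.4 kb, was in the MCF10A-named parental list alone.

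The sequence under the clusters was of single copy and mixed in composition. None of the 9 central 200 bp windows had another match in GRCh37 of at least 90% identity over at least 90% of its length, whereas 5.46% of all 897 did. GC content ranged from 27% to 58% with a median of 51%, against a median of 47.5% over all clusters and 44.5% in windows 5 kb to either side of them. By width 4 of the 9 were at the smallest size of 10 bp, and the median of 60 bp was that of all clusters.

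None of the 9 was within 1 kb of a canonical protein-coding TSS, but 4 of 9, 44.4%, were within 1 kb of some annotated transcript start, at S100A10, S100A11, S100A2 and S100A16. Over all 897 clusters the shares were 8.47% and 16.1%. The 9 clusters are few, neighbouring genes have several annotated starts each, and no test was made.

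Motif words were searched on both strands. The AP-1 word TGANTCA was in the central 200 bp of 1 of 9 clusters, the one at S100A2, beside 20.6% of all clusters and 5.80% of flanking windows. The middle base was left free, so this word is looser than the AP-1 site with C or G there. The stricter word was not counted. The match at S100A2 is TGAATCA. In the central 500 bp, a width chosen after seeing the data, it was in 6 of 9, beside 33.6% of all clusters and 16.1% of flanks. These words, in capitals with 12 bases on either side, are shown because all but that at S100A2 lie outside the listed cluster.
S100A2 cluster, inside it: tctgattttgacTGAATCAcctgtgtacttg
S100A16 cluster, 94 bp from it: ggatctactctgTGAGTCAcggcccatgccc
S100A10 intron 1 cluster of 10 bp, 131 bp from it: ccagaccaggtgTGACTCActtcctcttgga
RPTN cluster, 178 bp from it: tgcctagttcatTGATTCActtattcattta
Cluster 30.5 kb upstream of S100A10, 193 bp from it: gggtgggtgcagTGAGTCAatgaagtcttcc
Cluster nearest THEM5, 218 bp from it: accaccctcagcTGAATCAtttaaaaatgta
The cluster nearest THEM5 had a second AP-1 word, TGAGTCA, 236 bp from it, whose surroundings are not shown.

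The glucocorticoid response element was in 0 of 9 clusters at either width, beside 6.35% of all clusters at 200 bp and 0.334% of flanks. The TEAD word GGAATG was in 3 of 9, beside 20.3% of all clusters and 10.3% of flanks, and the RUNX word TGTGGT in 2 of 9, beside 20.96% and 13.8%. Both stood together in the cluster upstream of S100A11, 4 bp apart. The NF-kB word was in 3 of 9, beside 27.9% of all clusters and 24.9% of flanks. The p53 word, added after seeing the data, was in 2 of 9, at the clusters 30.5 kb from S100A10 and near RPTN, beside 7.25% and 5.52%, and not in the S100A2 window. The words TTGCNNAA for C/EBP, CACGTG for the E-box, GGGCGG for the GC box, CCGGAA for ETS and the estrogen response element were in 0 of 9, and in 2.34%, 7.58%, 3.34% and 0% of all clusters for the E-box, the GC box, ETS and the estrogen element and 23.2% for C/EBP. In the central 200 bases of RefSeq promoter sequences (GRCh38.p14), AP-1 was in 5.38%, TEAD in 9.51% and RUNX in 8.72%. The NF-kB word was in 49.5% of them and the p53 half-site word in 4.35%.

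The genes most like the 3 in their profile over the lists were compared by the sum of absolute differences of 4 percentages, each the percentage of a list scored below the gene's best cluster within 200 kb, with 0 where a list has none. S100A2 and S100A4 had the same profile, 23.2 and 95.5 in the MCFDCIS-named D4 and parental lists and 0 in both MCF10A-named lists. The nearest gene with no shared cluster was OSR1, a zinc finger gene on chromosome 2, at 8.08 and 85.4 and a sum of 25.3, and MAP10 and SIPA1L2 on chromosome 1 followed with equal profiles at 27.7. S100A10 had 0 and 73.3 in the MCFDCIS-named D4 and parental lists and 10.1 and 78.4 in the MCF10A-named D4 and parental lists. GGH, TTPA and YTHDF3, which are on chromosome 8 and have equal profiles, were nearest to it at a sum of 12.5, with 73.4 and 76.1 in the parental lists and 0 in both D4 lists.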

How the data were processed

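AIB1 ChIP-seq lists of 16 samples (12 ChIP and 4 input samples) were analysed. Normalization was to input from cell lysate, per the design text, and coordinates are hg19 (GRCh37), per the submitters' processing notes. The sources used here name no aligner, caller or threshold and do not say how samples were combined. The authors deposited 4 lists whose column 5 is a score of unstated definition. Clusters were compared with GRCh37 and GENCODE release 44 lifted to it, over 18604 protein-coding genes on the 20 chromosomes that hold clusters. Distances run from the canonical TSS to the nearest base of a cluster, with 200 kb as the limit. A cluster was shared where it overlapped by at least 1 bp, and all overlapping clusters had identical ends. S100A7L2, not protein-coding in GENCODE, and S100B and MYH9, on chromosomes without clusters, were not analysed here. Close second matches were sought with blastn 2.17.0. Intervals of shares are exact 95% (Clopper-Pearson) and cover counting error only.

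Named genes were the 3 members, the other S100 genes of 1q21, the gene nearest to each cluster, members of the gene lists with a cluster within 200 kb, and the 3 closest profiles per member. Members and lists were chosen with earlier results of these data known. No test was made. Counting and motif search were tested on simulated data. Python 3.11.15, pandas 2.3.3, SciPy 1.17.1, samtools 1.23.1 and matplotlib 3.10.9 were used.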

Additional observations from a re-analysis of the deposited data

How the results depend on the processing

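Of 60 recomputed values, 32 stayed within 1.5 times the reported count (or within the interval of a share), and the other 28 follow. Clusters near S100A2, S100A4 or S100A10 in the MCFDCIS-named parental list numbered 7, and 4 with a 50 kb window, 2 with 25 kb, 4 at or above the median score and 4 over 10 bp. In the MCF10A-named parental list they numbered 4, and 1 with 50 kb, 1 with 25 kb and 2 at or above the median score. At or above the median score both D4 lists had 0. The 1q21 S100 genes near a cluster numbered 13 in the MCFDCIS-named D4 list, and 7 with 50 kb and 3 with 25 kb, against 15 for its parental counterpart, and 9 with 25 kb. In the MCF10A-named D4 list the 2 became 1 with 25 kb. The share of all genes with a cluster, with windows of 100, 50 and 25 kb, was 1.53%, 0.844% and 0.505% in the MCFDCIS-named D4 list, 6.18%, 3.39% and 1.84% in its parental counterpart, 0.984%, 0.597% and 0.323% in the MCF10A-named D4 list and 4.01%, 2.18% and 1.12% in the MCF10A-named parental list. Fewer genes and clusters fall in a smaller window by construction. In the central 500 bp, AP-1 words were in 6 clusters in place of 1, TEAD words in 5 in place of 3 and RUNX words in 4 in place of 2, again with more sequence searched. At that width TEAD words were in 35.1% of all clusters and 25.1% of flanks, and RUNX words in 35.6% and 31.5%.

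Using every transcript start or cluster midpoints changed no count of clusters within 200 kb of the 3 genes, and these settings were not applied to the other counts. Reciprocal overlap of 50% and a limit of 1 kb changed no count of clusters shared between D4 and parental lists. No paired analysis was possible because each group has 1 list with no value per sample, and for the same reason no replicate could be left out. Depth is unknown, so a cluster missing from a list does not show that AIB1 was absent there.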
